A study of Mus musculus with 4 samples.

Results

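The genes described here are 10 mouse genes of the muscle wasting programme: the forkhead transcription factors Foxo1 and Foxo3a (current symbol Foxo3), the ubiquitin ligases Fbxo32 (atrogin-1) and Trim63 (MuRF1), the growth arrest genes Cdkn1a and Gadd45a, the autophagy genes Bnip3, Map1lc3b and Gabarapl1, and the transcription factor Klf15. They were chosen by name, and all 10 were found in the deposited table, 1 row each, among 17906 genes. The RNA came from quadriceps muscle of male CD-1 mice 5 weeks old. The Lin28A Tg group holds 2 arrays of mice labelled as carrying a Lin28A transgene, and the WT group holds 2 arrays of wild-type mice. The labels name neither the promoter of the transgene nor the animal behind each array. The p-values therefore reflect the spread between arrays alone, which may be technical, and the small number of arrays limits their precision.

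When muscle is unloaded, denervated, starved or exposed to glucocorticoids, FOXO factors enter the nucleus and switch on genes that break muscle protein down. Insulin and IGF-1 act through the kinase AKT to phosphorylate FOXO factors and keep them in the cytoplasm. Fbxo32 and Trim63 encode ligases that attach ubiquitin to muscle proteins and so mark them for the proteasome, while Map1lc3b, Gabarapl1 and Bnip3 act in autophagy, the lysosomal route. Because FOXO activity is set largely by phosphorylation, the mRNA level of a FOXO gene is not a measure of that activity. Lin28A binds precursors of the let-7 microRNAs and blocks their maturation. Whether mice labelled with the transgene express the wasting programme at another level than wild-type mice is the question this comparison bears on.

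The promoter of Trim63 is shown because the letters bound by FOXO factors and by the glucocorticoid receptor can be read directly in it. The sequences are RefSeq's for build GRCm38.p6 and run from 250 bases before to 50 bases after the annotated start. The Trim63 window lies on the plus strand at chr4:134314870-134315169, just upstream of and into the first exon. Capitals mark, in order, the half-site AGAACA of the glucocorticoid receptor (read here on the opposite strand), the FOXO motif GTAAACA (also on the opposite strand, directly adjoining and not overlapping it) and the letters TATAAA.
Trim63: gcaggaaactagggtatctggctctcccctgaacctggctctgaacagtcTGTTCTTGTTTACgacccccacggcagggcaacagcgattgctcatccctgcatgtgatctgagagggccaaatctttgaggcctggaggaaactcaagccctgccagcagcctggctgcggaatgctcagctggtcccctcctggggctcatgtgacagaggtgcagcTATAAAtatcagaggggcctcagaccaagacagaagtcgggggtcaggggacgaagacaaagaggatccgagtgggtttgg
The FOXO letters span positions -194 to -188 and the half-site -200 to -195, counted from the annotated start, with TATAAA at -31 to -26. Of 32851 promoter windows of the same length, 3.65% hold GTAAACA on either strand, 19% hold AGAACA on either strand and 8.32% hold TATAAA on the gene's strand. Of the 10 genes, 9 had an entry, with 10 windows in all because Cdkn1a has 2, and Trim63 was the only 1 of the 9 whose window held any of these 3 motifs. A match describes the letters and is not evidence of binding.

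Most of the other windows are of the CpG-rich kind typical of widely expressed genes. Map1lc3b is shown as the example, because it had the smallest p of the set. Its window lies on the plus strand at chr8:121590188-121590487, and capitals mark each CG.
Map1lc3b: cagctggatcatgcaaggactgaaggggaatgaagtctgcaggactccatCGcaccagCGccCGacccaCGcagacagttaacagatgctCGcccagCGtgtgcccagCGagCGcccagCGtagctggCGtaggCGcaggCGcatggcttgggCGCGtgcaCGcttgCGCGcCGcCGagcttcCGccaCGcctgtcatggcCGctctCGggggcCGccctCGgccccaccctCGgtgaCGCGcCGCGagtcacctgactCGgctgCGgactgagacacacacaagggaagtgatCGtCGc
This window holds 34 CG dinucleotides at a GC content of 68.0%, against 7 and 57.0% for Trim63 and medians of 7 and 52.7% over all windows. Foxo1 has 31 CG dinucleotides, Foxo3a 35, Bnip3 27, Klf15 47, Gadd45a 14 and Gabarapl1 12, and the 2 windows of Cdkn1a have 2 and 23.

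The values are normalized fluorescence intensities on a linear scale, from which background had not been subtracted. A gene was tested where it exceeded 90.02, a level set from the background of the arrays, on at least 2 of the 4 arrays; 7902 genes did. By this measure 7 of the 10 genes were tested. Foxo3a, Bnip3 and Klf15 were at or below that level on all 4 arrays, so that no fold is given for them. Skeletal muscle markers checked the tissue label: all 16 were tested and none was below the level throughout, led by Tnnc2 and Acta1. The Lin28a row read 86.42 and 87.96 on the Lin28A Tg arrays and 82.94 and 82.56 on the WT arrays, all below the level, so the transgene label is not checked by it. Array correlations over tested genes ran from 0.976 to 0.990. WT replicate 1 stood apart by its hepatocyte markers, whose summed intensity over 19 genes was 22558.6 there and 1896.6 to 2274.7 on the other 3 arrays.

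No gene passed an adjusted p of 0.05 in limma's moderated test over all 7902 genes, a share called of 0%, and so none of the 7 genes passed. At an unadjusted p under 0.05, 5.05% of all genes tested were higher in Lin28A Tg muscle and 3.81% lower. Among the 7 genes 1, Map1lc3b, met that mark, in the lower direction. Both Lin28A Tg arrays lay above both WT arrays for 1 of the 7 (Foxo1), as they did for 21.6% of all genes tested. They lay below for 1 of the 7 (Map1lc3b), as they did for 16.7% of all genes. The median log2 difference of the 7, Lin28A Tg minus WT, was 0.09 against 0.01 over all genes tested, with 4 positive and 3 negative. It was -0.16 without Lin28A Tg replicate 2 and 0.04 without WT replicate 1. Because background had not been subtracted, differences of dim genes are understated: subtraction by normexp with an offset of 16 took Foxo1, Cdkn1a and Fbxo32, given next as deposited, to log2 differences of 0.18, 0.30 and -0.40.

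**Figure D1:**
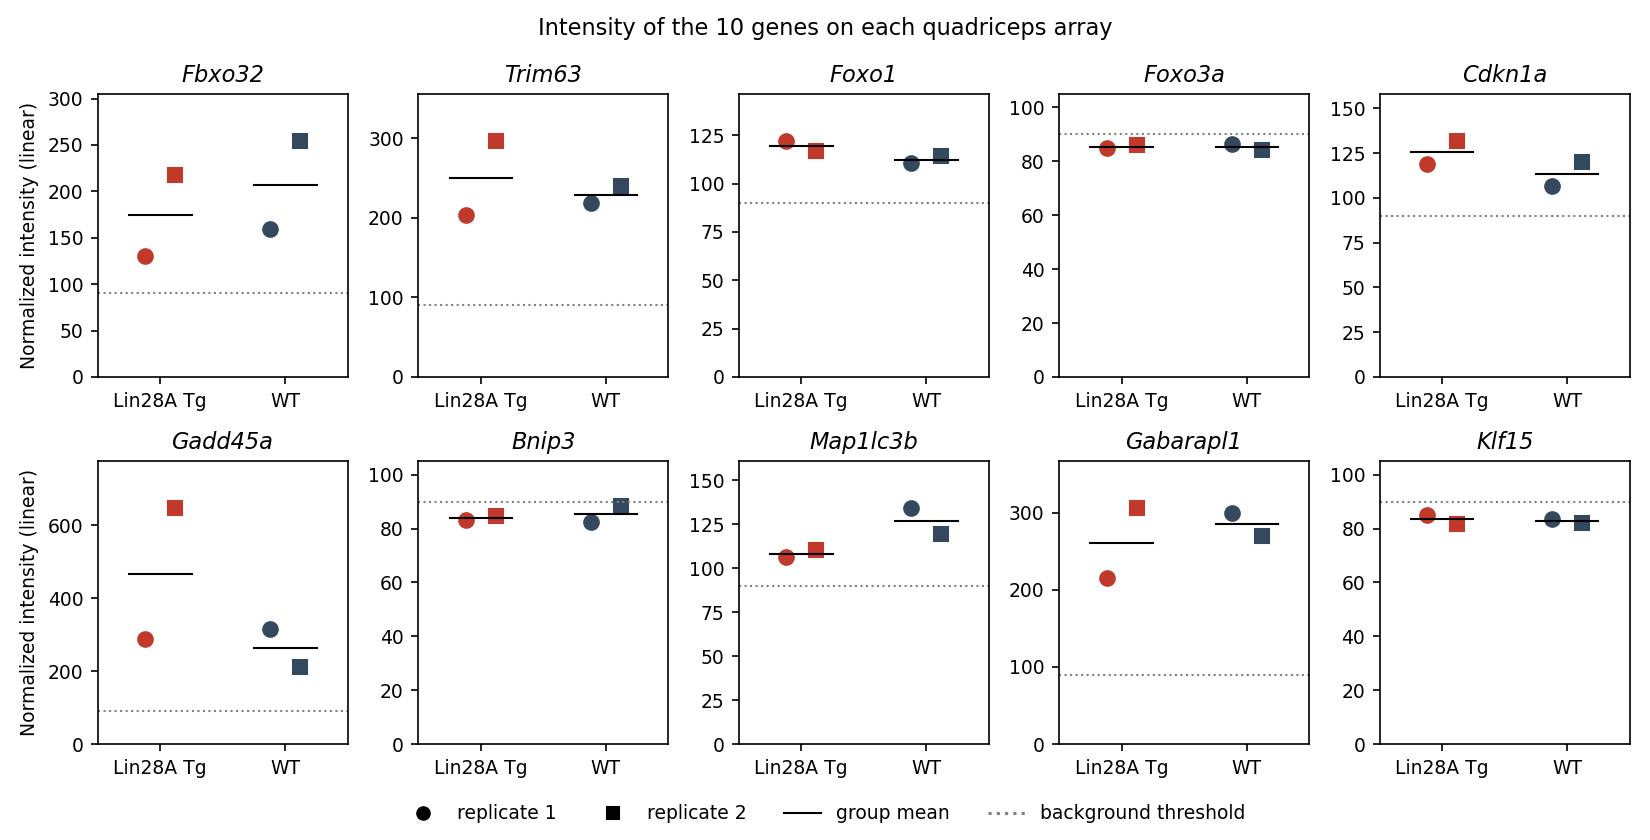
Normalized intensity (linear, y axis from 0) of each of the 10 genes on each array, Lin28A Tg in red and WT in dark blue, circles for replicate 1 and squares for replicate 2, with group means as bars and the background level of 90.02 dotted. Foxo1 and Map1lc3b are the 2 tested genes whose groups do not overlap, and Foxo3a, Bnip3 and Klf15 lie under the dotted line on every array.

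Of the FOXO factors, Foxo1 was measurable and close to equal in both groups. It read 122 and 116.7 on the Lin28A Tg arrays and 110.7 and 114.2 on the WT arrays. Every Lin28A Tg value was above every WT value, by a narrow margin between 116.7 and 114.2. The log2 difference was 0.09 (SE 0.06, 95% interval -0.08 to 0.25), a fold of 1.06, with limma adjusted p = 0.772. Leaving out 1 array at a time gave 0.05 to 0.12. Foxo3a read 84.92 and 86.08 in Lin28A Tg and 86.28 and 84.27 in WT samples, which does not separate the groups and cannot be told from background. Foxo4, another FOXO gene, was below the level on all 4 arrays too. Foxo6, best known from brain, exceeded it on 2 arrays, Lin28A Tg replicate 1 at 96.37 and WT replicate 2 at 90.27, and had a log2 difference of 0.02 (SE 0.09).

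The ubiquitin ligases varied more between arrays of a group than between the groups. Fbxo32, the F-box subunit of a ligase whose known substrates include MyoD and the translation factor eIF3f, read 130.6 and 217.7 in Lin28A Tg and 159.5 and 254.1 in WT samples. Replicate 2 was the higher array in both groups, by 1.67-fold in Lin28A Tg and 1.59-fold in WT, and the groups overlapped. The log2 difference was -0.26 (SE 0.35, 95% interval -1.19 to 0.68; limma adjusted p = 0.897), so the arrays neither show a difference nor bound it tightly. Its sign turned when Lin28A Tg replicate 1 (0.11) or WT replicate 2 (0.08) was left out, and the value was -0.62 without Lin28A Tg replicate 2 and -0.59 without WT replicate 1.

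Trim63, a RING-finger ligase of the sarcomere that acts on thick filament proteins such as myosin, read 204 and 296.2 in Lin28A Tg and 218.3 and 239.3 in WT samples. Both WT values fell between the Lin28A Tg values. The log2 difference was 0.10 (SE 0.20, 95% interval -0.43 to 0.64; limma adjusted p = 0.938), and it was -0.16 without Lin28A Tg replicate 2, 0.37 without Lin28A Tg replicate 1, 0.04 without WT replicate 1 and 0.17 without WT replicate 2. As with Fbxo32, Lin28A Tg replicate 1 was the lowest of the 4 arrays and WT replicate 1 the next, so the 2 ligases shared the order of their lower arrays. The related Trim54 (MuRF3), which binds microtubules and the sarcomere, did not share it, at 555 and 530.2 in Lin28A Tg and 546.1 and 756.4 in WT samples (log2 difference -0.24, SE 0.17).

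Fibre type and glucocorticoid-responsive genes moved across the same arrays. The summed intensity of 12 slow fibre genes was 2756.9 and 4469.8 in Lin28A Tg and 1908.7 and 9816.1 in WT samples. Myl3, a slow myosin light chain gene, differed 18.14-fold between the 2 WT arrays. The summed intensity of 25 glucocorticoid and Klf15 target genes was 13897.3 and 18961.6 in Lin28A Tg and 11865.9 and 20524.4 in WT samples. In both lists, as in Fbxo32, replicate 2 was the higher array of each group. This order was not particular to them. Trim63 had it too. So did the muscle ubiquitin ligase list, which summed to 4495.8 and 4797.2 in Lin28A Tg and 4836.4 and 5229.3 in WT samples. The sums of the ubiquitin, autophagy, growth arrest, other FOXO target, denervation and macrophage lists also had it. It was absent from the FOXO factor and lysosome sums. The part of the slow fibre and glucocorticoid lists in the ligase values was not tested. In whole muscle fewer cells of a type and less RNA per cell cannot be told apart.

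Of the growth arrest genes, Gadd45a had the largest log2 difference and the largest spread of the 7 tested. It encodes a stress protein that is induced in denervated and fasted muscle and drives nuclear remodelling of fibres. It read 287.2 and 646.9 in Lin28A Tg and 315.9 and 212.9 in WT samples. Lin28A Tg replicate 2 alone was high, and the other Lin28A Tg array lay between the WT values. The log2 difference of 0.73 (SE 0.45, 95% interval -0.49 to 1.95; limma adjusted p = 0.736) was 0.15 without that array, 1.32 without Lin28A Tg replicate 1, 1.02 without WT replicate 1 and 0.45 without WT replicate 2. Its paralogs did not follow it. Gadd45b was at a log2 difference of 0.06 (SE 0.14). Gadd45g was high on WT replicate 2 instead, at 1798.1 against 604 to 753.8 on the other arrays, with a log2 difference of -0.75 (SE 0.47; limma adjusted p = 0.742).

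Cdkn1a, which encodes the cyclin-dependent kinase inhibitor p21, is a target of both p53 and FOXO factors. It read 119.2 and 131.7 in Lin28A Tg and 106.8 and 120.1 in WT samples. The groups overlapped only in that the lower Lin28A Tg value was under the higher WT value, 119.2 against 120.1. The log2 difference was 0.15 (SE 0.09, 95% interval -0.11 to 0.40; limma adjusted p = 0.745), and it was 0.06 without WT replicate 1, the array with hepatocyte markers, 0.07 without Lin28A Tg replicate 2, 0.22 without Lin28A Tg replicate 1 and 0.23 without WT replicate 2. Cdkn1b, the related inhibitor p27, was below the background level on all 4 arrays.

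**Figure D2:**
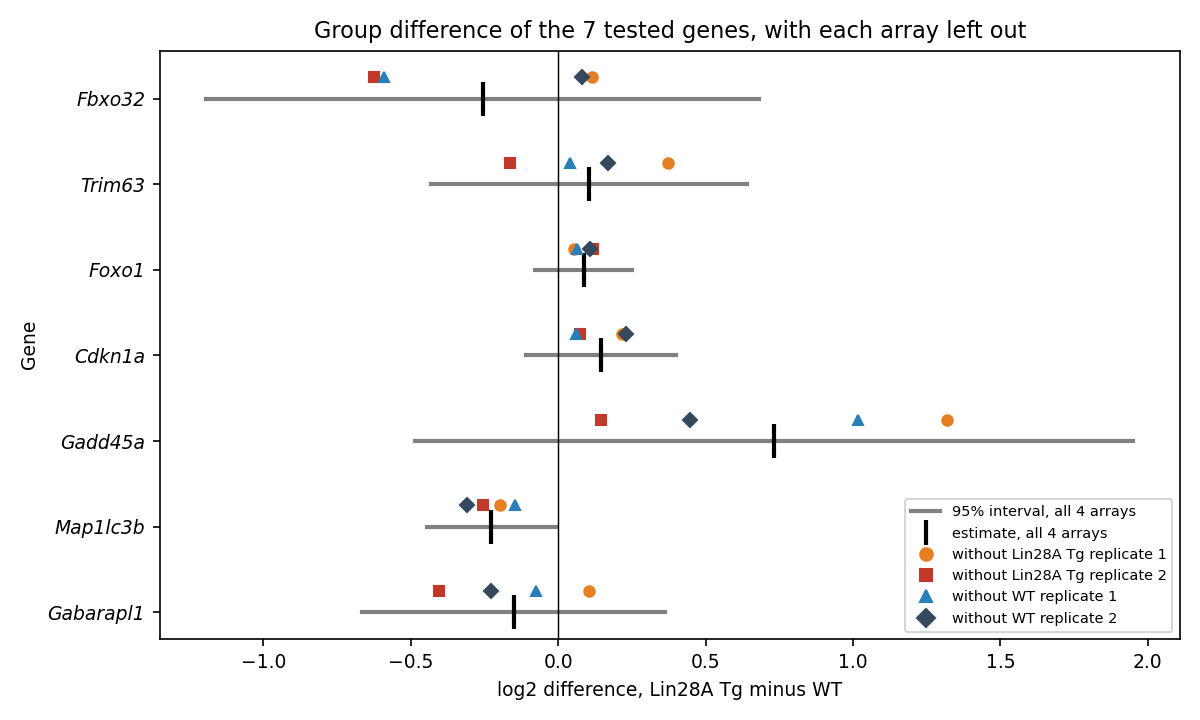
Log2 difference in intensity, Lin28A Tg minus WT (x axis), of the 7 tested genes, with limma's 95% interval (grey bar), the estimate from all 4 arrays (black tick) and the estimate with each array left out (coloured symbols). The interval crosses 0 for every gene but Map1lc3b, whose interval ends at -0.01, and the estimates of Fbxo32, Trim63 and Gabarapl1 take both signs.

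Among the autophagy genes Map1lc3b was lower on both Lin28A Tg arrays. It encodes LC3B, the ubiquitin-like protein that is coupled to lipid on the growing autophagosome membrane. It read 106.2 and 110.4 in Lin28A Tg and 134 and 119.7 in WT samples, without overlap. The log2 difference was -0.23 (SE 0.08, 95% interval -0.44 to -0.01), a fold of 0.85. In limma its adjusted p = 0.551 (unadjusted 0.0447), which does not pass over all genes. With any 1 array left out the difference ran from -0.31 (WT replicate 2) to -0.14 (WT replicate 1, the array with hepatocyte markers). Because the groups do not overlap, leaving out an array cannot turn its sign. The intensities are close to background, and the same normexp subtraction gave -0.47.

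Gabarapl1, of the GABARAP branch of the same family, is a FOXO target in muscle. It read 214.9 and 305.4 in Lin28A Tg and 299.9 and 269.5 in WT samples. Lin28A Tg replicate 1 was again the lowest array, whereas the other Lin28A Tg array was the highest. The log2 difference of -0.15 (SE 0.19, 95% interval -0.66 to 0.36; limma adjusted p = 0.881) was 0.10 without Lin28A Tg replicate 1, -0.40 without Lin28A Tg replicate 2, -0.07 without WT replicate 1 and -0.23 without WT replicate 2. Bnip3, a mitochondrial protein that acts as a receptor for mitophagy, read 83.08 and 84.72 in Lin28A Tg and 82.57 and 88.32 in WT samples. All 4 values were under the background level, so the arrays do not show whether its mRNA differed.

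Relatives of these genes were measured as well. Gabarap read 1683.2 and 1743.0 in Lin28A Tg and 1840.9 and 1885.0 in WT samples, without overlap, at a log2 difference of -0.12 (SE 0.06; limma adjusted p = 0.671). Like Map1lc3b, it was lower on both Lin28A Tg arrays, by a small amount. Map1lc3a, which encodes LC3A, read 343.3 and 536.4 in Lin28A Tg and 331.8 and 471.9 in WT samples. As with Fbxo32, replicate 2 was the higher array of each group, and the log2 difference was 0.12 (SE 0.29). The Bnip3 relative Bnip3l (NIX), also a mitophagy receptor, had a log2 difference of 0.02 (SE 0.14). Gabarapl2 was below the background level on all 4 arrays.

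Klf15, a transcription factor that glucocorticoids induce and that raises branched-chain amino acid breakdown in muscle, read 85.17 and 81.61 in Lin28A Tg and 83.73 and 81.97 in WT samples. All 4 values were under the background level. Klf9, another glucocorticoid-induced factor of the family, was above it on all 4 arrays and overlapped between groups (log2 difference -0.12, SE 0.14). Bcat2, the mitochondrial branched-chain aminotransferase and a Klf15 target, read 194.4 and 235.8 in Lin28A Tg and 232.8 and 260.1 in WT samples, at a log2 difference of -0.20 (SE 0.12; limma adjusted p = 0.735) that was -0.06 without Lin28A Tg replicate 1.

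The spread between arrays of a group set how much these data could show for each gene. The pooled SD within groups, on the log2 scale, was 0.65 for Gadd45a, 0.50 for Fbxo32, 0.28 for Trim63 and 0.27 for Gabarapl1. For these 4 genes it was larger than in 99.1%, 98.5%, 95.5% and 95.1% of the 7902 genes tested, whose median was 0.08. Cdkn1a (0.11), Map1lc3b (0.09) and Foxo1 (0.04) lay inside the bulk, above 69.5%, 56.6% and 20.9% of genes. Because background had not been subtracted, the SD of dim genes is understated. This holds for these 3 genes, with intensities of at most 134, and for dim genes among the 7902. With 2 arrays a group this SD rests on 2 degrees of freedom per gene, so it is itself imprecise.

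**Figure D3:**
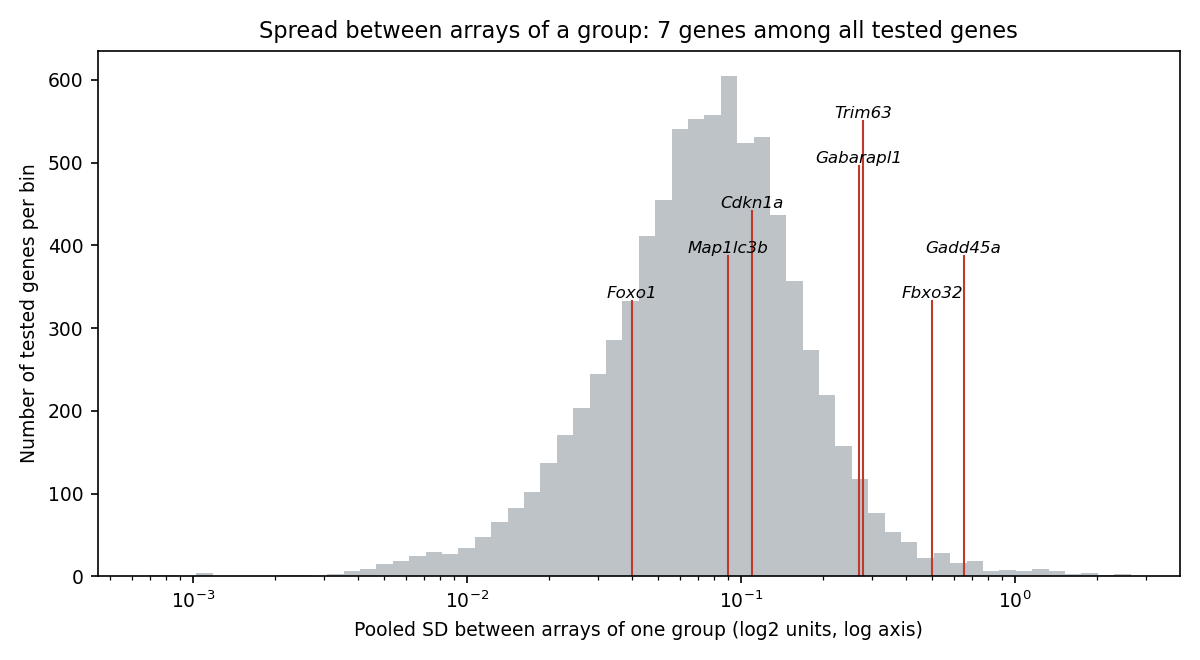
Histogram of the pooled SD between arrays of a group (x axis, log2 units on a log axis; y axis, number of genes per bin) for all 7902 genes tested, with red lines at the 7 genes. Gadd45a, Fbxo32, Trim63 and Gabarapl1 sit in the upper tail, at 0.27 to 0.65 against a median of 0.08.

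The wider pathway was described with 9 gene lists, which include the 10 genes. Together they held 168 genes of the table, of which 131 were tested, and limma called 0 in either direction, the smallest adjusted p being 0.482. At an unadjusted p under 0.05, 14 were higher in Lin28A Tg (10.7% against 5.05% of all genes) and 3 lower (2.29% against 3.81%). Both Lin28A Tg arrays lay above both WT arrays for 32 (24.4% against 21.6%) and below for 18 (13.7% against 16.7%). The median log2 difference was 0.02, and -0.02 to 0.06 with any 1 array left out. With 1 array left out more genes separate by construction, 40 to 62 above and 25 to 47 below. The counts include genes that passed the filter only through 1 group, whose direction the filter fixed: Atg4b, Bbc3, Psmd11, Prodh and Lcn2 among those below and Chrng among those above. Prodh and Lcn2 are both of the genes below in the glucocorticoid and Klf15 list. All but Chrng were named after their values were seen.

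FOXO targets outside the ligases and autophagy had their smallest p-values at Bcl6, Pdk4, Angptl4 and Ccnd1, each with a positive log2 difference. Of 22 tested members of that list 7 lay above and 2 below without overlap (21.6% and 16.7% of all genes). None passed, and 4 were higher at an unadjusted limma p under 0.05 (5.05% of all genes). Psmd11, 1 of the 2 below, passed the filter only through the WT arrays. The median log2 difference of the list was 0.01, or -0.05 to 0.10 with any 1 array left out. Bcl6, a transcriptional repressor, read 1205.1 and 1401.2 in Lin28A Tg and 813.9 and 619.3 in WT samples (log2 difference 0.87, SE 0.16; limma adjusted p = 0.482). Angptl4, a secreted inhibitor of lipoprotein lipase, read 220.9 and 240.6 in Lin28A Tg and 171.2 and 144 in WT samples (log2 difference 0.55, SE 0.11; limma adjusted p = 0.482). With any 1 array left out Bcl6 was at 0.67 to 1.07 and Angptl4 at 0.43 to 0.68. Because their groups do not overlap, leaving out an array cannot turn the sign. Pdk4, which restrains pyruvate oxidation in fasting, was at 0.52 (SE 0.10), and Ccnd1, a cyclin gene that FOXO factors repress, at 0.40 (SE 0.11). Of 16 tested immediate-early genes limma called 0 (smallest adjusted p = 0.482; 9 were higher at an unadjusted p under 0.05), and 13 lay above without overlap, against 21.6% of all genes tested, with a summed intensity of 15464.8 and 11486.9 against 3875.6 and 6732.5 in WT samples; their part in these values was not tested.

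Ligase and ubiquitin genes beyond Fbxo32 and Trim63 went in both directions. Of 14 tested ligases 3 lay above and 2 below without overlap (21.6% and 16.7% of all genes). None passed in limma, and 1 was higher and 1 lower at an unadjusted p under 0.05 (5.05% and 3.81% of all genes). The median log2 difference was 0.01. Asb2, a substrate adaptor of a cullin ligase, read 1432.7 and 1537.9 in Lin28A Tg and 1819.5 and 1899.8 in WT samples, at a log2 difference of -0.32 (SE 0.07; limma adjusted p = 0.482). The chain-elongating ligase gene Ube4b was at 0.40 (SE 0.13), Mdm2, which encodes the ligase of p53, at 0.17 (SE 0.10) and Wwp1 at -0.14 (SE 0.06), none passing. Of 11 ubiquitin and conjugation genes 6 lay above and 1 below (21.6% and 16.7% of all genes), none passed, 2 were higher and 1 lower at an unadjusted limma p under 0.05, and the median was 0.10. Uba1, the main ubiquitin-activating enzyme, read 549.8 and 615.1 in Lin28A Tg and 456.6 and 467.2 in WT samples (log2 difference 0.33, SE 0.08; limma adjusted p = 0.508). The deubiquitinase gene Usp19, which is raised in wasting muscle of rats, was at 0.34 (SE 0.06), the conjugating enzyme gene Ube2e1 at 0.14 (SE 0.08), and Rps27a, a ubiquitin-ribosomal fusion gene, at -0.30 (SE 0.11).

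Autophagy genes went in both directions. Of 24 tested autophagy genes 4 lay above and 7 below without overlap (21.6% and 16.7% of all genes), none passed, 4 were higher and 1 lower at an unadjusted limma p under 0.05 (5.05% and 3.81% of all genes), and the median log2 difference was -0.01. Atg4b, 1 of the 7 below, passed the filter only through the WT arrays. The 4 autophagy genes with the smallest p were all higher in Lin28A Tg. Vcp, an ATPase that extracts ubiquitinated proteins, was at 0.41 (SE 0.10), Pik3c3, the class III lipid kinase of autophagosome formation, at 0.25 (SE 0.09), Atg101 of the ULK1 complex at 0.23 (SE 0.05) and the conjugation factor gene Atg12 at 0.21 (SE 0.06). Their limma adjusted p ran from 0.508 to 0.551. Of 14 lysosome genes 2 lay above and 0 below, none passed, 0 had an unadjusted limma p under 0.05, and the median was 0.02, with the cathepsin genes Ctsk and Ctsb at 0.18 and -0.11 and the proton pump subunit gene Atp6v0d1 at 0.07.

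In the remaining lists limma called no gene. At an unadjusted p under 0.05 it had 1 growth arrest gene, 0 glucocorticoid or Klf15 targets and 2 denervation genes higher and 0 lower. Over all genes tested the shares were 5.05% higher and 3.81% lower. Of 18 growth arrest and p53 target genes 3 lay above and 2 below (21.6% and 16.7% of all genes), with a median log2 difference of 0.02. Bbc3, 1 of the 2 below, passed the filter only through the WT arrays. Btg1, an antiproliferative gene, was at 0.18 (SE 0.07) and Trp53 itself at 0.13 (SE 0.07). Of 21 glucocorticoid and Klf15 targets 2 lay above and 2 below (21.6% and 16.7% of all genes). Both below, Prodh and Lcn2, passed the filter only through the WT arrays, so their direction was set by the filter. The median log2 difference of the list was -0.05. It was 0.10 without WT replicate 2, 0.03 without Lin28A Tg replicate 1, -0.11 without Lin28A Tg replicate 2 and -0.12 without WT replicate 1. Mgst1, a microsomal glutathione transferase gene, was at -0.85 (SE 0.43) and high on WT replicate 1, and was at -0.34 without it; the metallothionein gene Mt3 was at 0.31 (SE 0.16). Of 12 genes induced by denervation or ATF4 6 lay above and 2 below (21.6% and 16.7% of all genes), with a median of 0.17 that was 0.07 without Lin28A Tg replicate 2 and 0.06 among genes above an intensity of 92.28 on all 4 arrays. The acetylcholine receptor subunit gene Chrna1 was at 0.36 (SE 0.07), the stress gene Nupr1 at 0.22 (SE 0.10) and the myogenic factor gene Myog at 0.21 (SE 0.10), with limma adjusted p from 0.482 to 0.671. Chrng, the fetal receptor subunit gene, was under the background level on both WT arrays and at least 1.15-fold higher in Lin28A Tg muscle, a bound set against the lowest intensity above that level. It passed the filter only through the Lin28A Tg arrays, so its direction was set by the filter, and it is counted among the denervation genes above and among the 2 higher at an unadjusted p under 0.05.

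**Figure D4:**
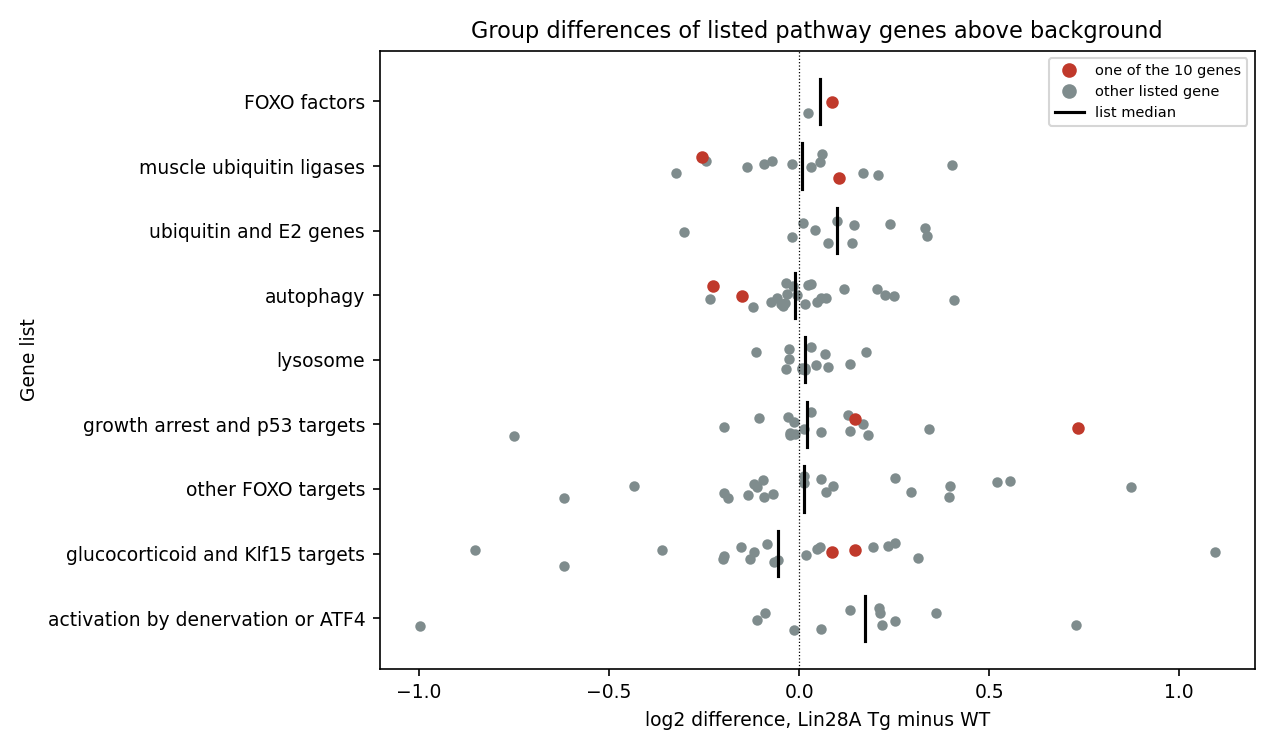
Log2 difference in intensity, Lin28A Tg minus WT (x axis), of each tested gene in 9 pathway lists (rows), with the 10 genes of the set in red where tested and list medians as black bars. Medians lie between -0.05 and 0.17, and vertical scatter within a row has no meaning.

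Other cell types were checked because their RNA could enter a whole-muscle sample. Of 14 macrophage markers 12 were tested and 2 were below the level throughout, with summed intensities of 4016.4 and 4276.6 in Lin28A Tg and 3461.9 and 3734.9 in WT samples, led by Lyz2 and Cd74. Adipocyte markers, led by Lpl and Cfd, summed to 14385.2 and 18306.4 against 19650.7 and 16516.2 (11 of 13 tested, 1 below throughout). Endothelial markers, led by Egfl7 and Esam, summed to 2420.3 and 2412.3 against 2202.1 and 2489.7 (12 of 12 tested). Fibroblast markers, led by Dcn and Col1a1, summed to 9805.9 and 9165.8 against 9463.4 and 8156.6 (8 of 9 tested, 1 below throughout). Of these sums, the macrophage sum was the 1 that did not overlap between groups. Among its 12 tested markers 4 lay above and 1 below without overlap (21.6% and 16.7% of all genes), with a median log2 difference of 0.06. Of 8 tested fibroblast markers 3 lay above and 0 below, with a median of 0.10. Col1a1 was at 0.80 (SE 0.10; limma adjusted p = 0.482) and Dcn at -0.18 (SE 0.13). Endothelial markers had 3 above and 2 below, and adipocyte markers 0 above and 2 below. At an unadjusted limma p under 0.05, 3 macrophage and 2 fibroblast markers were higher and 0 lower (5.05% and 3.81% of all genes). The part of the macrophage sum in the values of Foxo1 and Map1lc3b was not tested. Hepatocyte markers were led by Apoa2, at 5506.2 on WT replicate 1 and 84.89 to 89.93 elsewhere, and 5 of their 19 genes were below the level throughout. Without that array the sign of none of the 7 genes changed, and for Foxo1 and Map1lc3b, whose groups do not overlap, it could not. The log2 difference of Map1lc3b, highest on that array at 134, went from -0.23 to -0.14. Those of Fbxo32 and Gadd45a went from -0.26 to -0.59 and from 0.73 to 1.02.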

How the data were processed

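Per the labels' protocols, total RNA was extracted with Trizol, cleaned up with DNase treatment and labelled as biotinylated cRNA for Illumina Ref-8 arrays. The values used are the authors' deposited linear intensities, 1 row per gene name. The deposited intensities were already normalized, since those of the same rank lie within 0.0916% of each other across arrays (median), and still carry background, with a minimum of 72.78. The software is not given in the sources used here. Another deposited table has 8 value columns whose names match no sample and was not used.

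Of 18091 rows, 14092 carry a current RefSeq symbol and 3044 were updated from an older name, 75 matched several and 880 none. Rows of 1 gene were reduced to the brightest, leaving 17906 genes. The background level, 90.02, is the mode of all log2 values (84.78) plus 1.645 SD (0.0526) of the values below it. Log2 intensities were compared with lmFit and eBayes of limma 3.58.1 under R 4.3.3 in a design of group alone, and p-values were adjusted over 7902 genes by Benjamini-Hochberg. The fit was tested on simulated data. Python 3.11.15 with pandas 2.3.3 did the rest.

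The 10 genes and the lists were chosen with earlier results of these data known. In each pathway list the 4 genes with the smallest p are named, in each marker list the 2 brightest, and paralogs of the 10 genes may be named; 1 gene of the lysosome list is not reported here. Alternatives were log2 of intensity plus 16, normexp with offsets of 16 and 50, dropping the filter, requiring 92.28 on all 4 arrays, keeping all rows of a gene, a trended robust variance prior, a replicate block, and leaving out each array.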

Additional observations from a re-analysis of the deposited data

How the results depend on the processing

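Of the 12 alternatives run, those other than leaving out an array kept the direction of all 7 genes. Among these, only log2 of intensity plus 16 and normexp with offsets of 16 and 50 could change the estimates. The filter settings, keeping all rows of a gene, the variance prior and the replicate block left the estimates the same by construction, so they do not test direction. None of the 7 genes passed in any alternative that kept all arrays. The smallest limma adjusted p there was 0.525, for Map1lc3b with the stricter filter. Normexp with an offset of 16 gave larger log2 differences for all 7, for example -0.47 for Map1lc3b, 0.89 for Gadd45a, 0.13 for Trim63 and -0.20 for Gabarapl1. With any 1 array left out the log2 difference ranged from -0.62 to 0.11 for Fbxo32, from -0.16 to 0.37 for Trim63 and from -0.40 to 0.10 for Gabarapl1, so that these 3 changed sign. It ranged from 0.15 to 1.32 for Gadd45a, 0.06 to 0.23 for Cdkn1a, 0.05 to 0.12 for Foxo1 and -0.31 to -0.14 for Map1lc3b. The number of the 7 genes without overlap ranged from 1 to 5 above and 1 to 4 below, since fewer arrays overlap less by construction, and their median ranged from -0.16 to 0.11. The number of all genes called ranged from 0 to 16, the 16 being without WT replicate 2 and including none of the 7; the cause was not tested. A lone array is assumed there to vary like the other group.

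The labels number the replicates 1 and 2 in both groups without saying that a number links samples, and the differences between replicates of the 2 groups correlated at 0.0366 over all genes tested. With the replicate block limma called 0 genes, and the 7 estimates were the same by construction, for example -0.26 for Fbxo32 (adjusted p = 0.572). The comparison with the table of unnormalized signals was not run, because its columns could not be matched to samples, and no fold is given under any alternative for Foxo3a, Bnip3 and Klf15, which lay under the background level on all 4 arrays. Signal over background limits Foxo1, Cdkn1a and Map1lc3b, whose intensities are at most 134 where background is near 84.78. Medians of the pathway lists were the same to 2 decimals with genes at their bound, except glucocorticoid and Klf15 targets at -0.04 in place of -0.05.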

Other observations

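The summed intensity of the glucocorticoid and Klf15 list, given above, includes 4 genes singled out after their values were seen, each with replicate 2 as the higher array of each group. Mt1, a metallothionein gene, read 1753.9 and 4106.6 in Lin28A Tg and 1336.2 and 3805.4 in WT samples. Ddit4 (REDD1), an inhibitor of mTORC1, read 137.3 and 230.3 in Lin28A Tg and 145.8 and 510.4 in WT samples. Cebpb, a transcription factor gene, read 1086.3 and 1706.2 in Lin28A Tg and 721.5 and 1959.5 in WT samples. Tsc22d3 (GILZ), a direct target of the glucocorticoid receptor, read 769.2 and 852.4 in Lin28A Tg and 586.3 and 1090.3 in WT samples. The groups overlapped for all 4, with log2 differences of 0.25 (SE 0.67), -0.62 (SE 0.67), 0.20 (SE 0.54) and 0.02 (SE 0.32), none passing in limma (adjusted p from 0.858 to 0.996). Their pooled SD within groups was larger than in 98.4% to 99.5% of genes tested. No reason for this spread was tested.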
